A study of Mus musculus with 6 samples.

Results

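A set of 6 microRNAs (miRNAs, short RNAs that repress messenger RNAs) known from smooth muscle cells and fibroblasts was followed across 3 populations of mouse tissue macrophages. They are mmu-miR-143-3p, mmu-miR-145a-5p, mmu-miR-199a-3p, mmu-miR-199a-5p, mmu-miR-199b-5p and mmu-miR-214-3p. They were taken by name from the miR-143/145 and miR-199/214 loci, and all 6 were found among the 1247 mouse miRNAs of each array.

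The study measured wild-type C57BL6/J male mice kept in specific-pathogen-free housing, with no treatment, allele or transgene in any group. Microglia (brain; CD45int, CD11b+, F4/80+, Ly6C-, Ly6G-), colon macrophages (CD45+, CD11b+, CD11c+, CD64+, Ly6C-) and liver macrophages or Kupffer cells (CD45+, CD11b+, F4/80+, CD64+, MHCII+) were sorted by flow cytometry, 2 arrays per group and 6 in all. Mice were 6 weeks old by the labels of the samples, or 6 to 8 weeks by the series' own description, and every array held RNA from a pool of 4 to 6 of them, so that the spread between replicates is a spread between pools. The 3 gates differ in the markers used, and the stated gates name no marker of smooth muscle, fibroblasts, epithelium or endothelium. In such bulk samples fewer cells of a type and less RNA per cell cannot be told apart.

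As background, miR-143 and miR-145 are processed from one precursor transcript and are classic miRNAs of contractile smooth muscle, where they act downstream of serum response factor and myocardin and help keep the contractile state. The hairpins Mir199a-2 and Mir214 share another transcript, Dnm3os. It is driven by Twist1 in mesenchymal tissue and is known from fibroblasts, stellate cells of the liver and fibrosis. Mature miRNAs are loaded into Argonaute proteins, which they guide to matching sites of messenger RNAs.

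RefSeq (build GRCm38.p6) held a mature sequence for 3 of the 6 miRNAs. These are shown because they decide which loci a row of the array can report on. Capitals mark the seed, bases 2 to 8 from the 5′ end, which sets most target recognition.
mmu-miR-199a-5p: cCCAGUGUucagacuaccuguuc
mmu-miR-199a-3p: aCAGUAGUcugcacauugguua
mmu-miR-214-3p: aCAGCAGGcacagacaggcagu

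The sequence of miR-199a-5p is encoded at chr1:162217844-162217866 (plus strand, Mir199a-2) and again at chr9:21496537-21496559 (minus strand, Mir199a-1). That of miR-199a-3p lies at chr1:162217883-162217904 (plus) and chr9:21496498-21496519 (minus), and Mir199b carries the same 22 bases at chr2:32318524-32318545 (plus), where they are called miR-199b-3p. miR-214-3p lies at chr1:162223438-162223459 (plus). The 3 seeds differ from each other. Beyond miR-199b-3p, which has no row of its own on these arrays, the one other mouse miRNA of the RefSeq table that shares a seed with these is miR-761, which shares that of miR-214-3p and was detected on 0 arrays. The following 3 hairpins carry the same 3p arm, in capitals, so the miR-199a-3p row cannot tell apart the RNA of 3 loci.
Mir199a-1: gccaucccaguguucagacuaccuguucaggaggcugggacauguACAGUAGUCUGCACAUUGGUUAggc
Mir199a-2: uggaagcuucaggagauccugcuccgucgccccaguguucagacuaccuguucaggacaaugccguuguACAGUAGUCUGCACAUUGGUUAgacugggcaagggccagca
Mir199b: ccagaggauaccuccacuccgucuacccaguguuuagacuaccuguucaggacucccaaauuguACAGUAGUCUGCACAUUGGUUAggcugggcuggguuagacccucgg

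In RefSeq each of the 3 miR-199 hairpins lies within the span of a different dynamin gene and on its opposite strand: Mir199a-1 in Dnm2, Mir199a-2 in Dnm3 and Mir199b in Dnm1. Mir214 lies 5444 bases from Mir199a-2 on the same strand, and both also lie within the long noncoding RNA Dnm3os on that strand. The Mir143 and Mir145a genes both lie within the span of the long noncoding RNA Carmn, also called Mir143hg. The start of Dnm3os is printed because miR-199a-5p and miR-214-3p moved alike over the arrays, although the miR-199a-5p row can also read RNA of Mir199a-1. It spans 250 bases before to 50 after the start, chr1:162217373-162217672, plus strand. Capitals mark matches to the E-box CANNTG, the kind of site that Twist1 binds.
Dnm3os: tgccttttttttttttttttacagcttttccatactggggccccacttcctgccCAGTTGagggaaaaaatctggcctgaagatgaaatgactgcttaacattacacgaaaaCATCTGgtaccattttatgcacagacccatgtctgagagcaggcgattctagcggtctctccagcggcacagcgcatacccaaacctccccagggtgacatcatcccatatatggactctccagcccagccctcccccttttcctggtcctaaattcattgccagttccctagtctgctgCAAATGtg

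Both strands were searched, and 3 E-boxes were found, starting at positions -196, -138 and 43 relative to the start. Among all 32851 RefSeq windows of that length, 72.3% hold a CANNTG. The one at -138 reads CATCTG, a subset of CANNTG found in 17.2% of windows. A TATA box spelled TATAAA, found in 13.6%, was not among the letters of the Dnm3os window. Such matches describe the sequence only.

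On these arrays detected miRNAs numbered 300 and 330 for microglia, 403 and 352 for the colon and 386 and 389 for the liver. miR-142-3p, a miRNA of all blood lineages, stood between 11.24 and 12.31 on every array. The 3 blood-lineage markers listed were not all even, however. The group means of miR-142-5p were 9.07 in microglia, 8.91 in the colon and 8.73 in the liver. miR-223-3p was at 8.27 and 8.47 in microglia, 12.67 and 12.83 in the colon and 11.45 and 12.40 in the liver. Its log2 change in microglia was -4.38 against colon and -3.56 against liver macrophages (limma, adjusted p = 0.00177 and 0.00218). Levels are given as log2 scaled signal: the fluorescence summed per miRNA, divided by the 75th percentile of that array among 248 miRNAs with detection throughout, brought to a common scale and floored at 1.64. Brightness also depends on the probe, so levels are compared within a miRNA. Of the 36 combinations of the 6 miRNAs and 6 arrays 22 were detected, with signals from 3.82 to 13.5 times the error that the scanner software gave them. The number of arrays limits the precision of all values.

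miR-143-3p, which restrains proliferation of smooth muscle cells, was detected on the colon arrays alone. It stood at 7.31 on colon replicate 1 and 6.37 on colon replicate 2, and was not detected on either microglia or either liver array. The scanner signals behind these levels were 201.4 with an error of 14.9 and 72.5 with an error of 6.21. miR-145a-5p, which promotes the contractile phenotype and comes from the same precursor, followed the same pattern, with 4.50 on colon replicate 1 and 3.48 on colon replicate 2. The lower of its signals, 9.74, was 3.82 times its error. On both rows the colon arrays were well apart from all others. The other arms of these hairpins with a row on the array, miR-143-5p, miR-145a-3p and the paralog miR-145b, were not detected on any array.

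miR-199a-5p was detected in colon and liver macrophages and on neither microglia array. The colon arrays gave 5.84 and 5.34 and the liver arrays 5.36 and 4.64, so that the ranges of colon and liver overlapped. miR-214-3p, encoded beside Mir199a-2 on Dnm3os, gave 5.02 and 4.36 for the colon and 4.91 and 3.57 for the liver, again overlapping. It was not detected in microglia. Its partner arm miR-214-5p was not detected on any array. miR-199a-3p, the arm shared by 3 hairpins, read 8.09 and 7.71 for the colon, and the liver arrays followed at 7.05 and 6.60. It was also detected on microglia replicate 1, at 5.00, but not on microglia replicate 2. Colon, liver and microglia arrays did not overlap for miR-199a-3p.

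miR-199b-5p, from the separate Mir199b hairpin, reached 7.42 and 6.92 for the colon against 4.14 and 3.70 for the liver. Microglia replicate 1 had it at 3.54, just under the liver arrays, and microglia replicate 2 did not detect it. Here the colon arrays stood well above the liver arrays, unlike for miR-199a-5p and miR-214-3p.

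**Figure D1:**
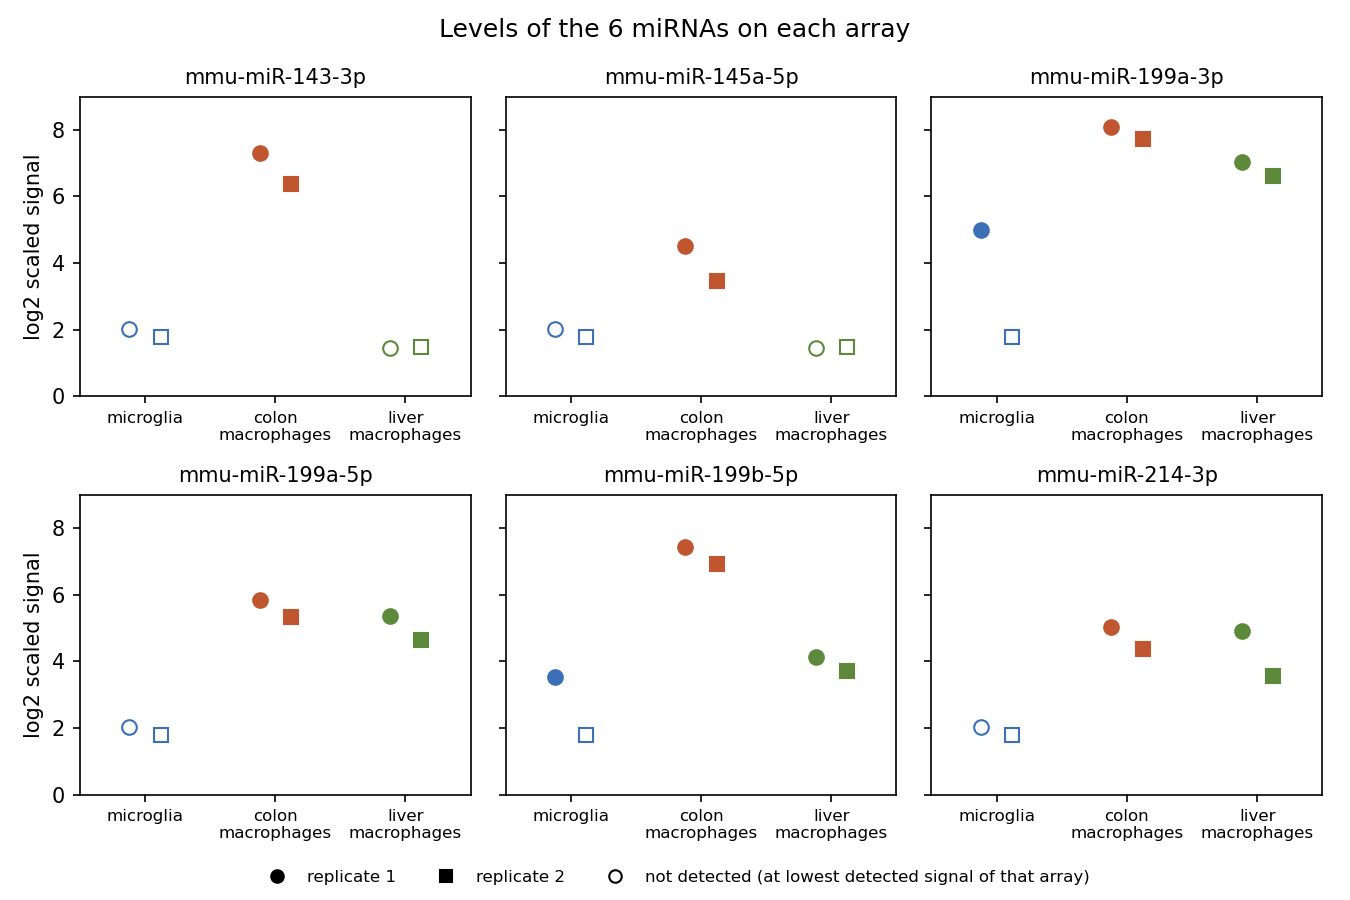
Log2 scaled signal (vertical axis) of each of the 6 miRNAs on each array, by group (horizontal axis); circles are replicate 1, squares replicate 2, and open symbols mark arrays without detection, drawn at the lowest detected signal of that array. miR-143-3p and miR-145a-5p are filled in colon macrophages alone, while miR-199a-5p and miR-214-3p lie at similar heights in colon and liver macrophages.

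Microglia were first set against colon macrophages, the comparison the study made to find miRNAs enriched in microglia of the healthy adult brain. All 6 miRNAs fell in microglia in limma's test (adjusted p under 0.05), where 28.5% of the 379 tested miRNAs were lower and 17.7% higher. All 6 were tested because both colon arrays detected them, and none was detected on both microglia arrays, so they had to differ in this direction and the count is a description. Their median log2 change was -4.26, beside -0.43 over all tested miRNAs. miR-143-3p was at 6.84 ± 0.66 (SD, n = 2) in colon macrophages and at least 30.5-fold lower in microglia (adjusted p = 0.00108). miR-145a-5p (3.99 ± 0.73) was at least 4.22-fold lower (adjusted p = 0.0107), miR-199a-5p (5.59 ± 0.36) at least 12.8-fold (adjusted p = 0.00177) and miR-214-3p (4.69 ± 0.47) at least 6.88-fold (adjusted p = 0.011). These folds are bounds in a limited sense: the mean of the colon arrays over the mean of the lowest detected signal of each microglia array. That signal can belong to any miRNA, and the detection limit of each miRNA's own probes was not determined. An undetected miRNA above that signal would make the true fold smaller.

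miR-199b-5p was 7.17 ± 0.36 in the colon and 2.59 ± 1.34 in microglia (SD, n = 2), a log2 change of -4.58 (SE 0.67, adjusted p = 0.00683). For miR-199a-3p the change was -4.58 as well, from 7.90 ± 0.27 to 3.32 ± 2.38 (SE 1.08, adjusted p = 0.026). The large SDs in microglia come from the array that detected these miRNAs, with the other array at the floor. Without microglia replicate 1 the changes were -5.62 and -6.35, and without microglia replicate 2 they were -3.60 and -2.87. Groups at the floor enter limma with an SD of 0, which can make the SE of the other 4 miRNAs too small.

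Which calls stand depends on the arrays in the fit. The log2 change of miR-143-3p was -4.58 without colon replicate 1 and -5.87 without colon replicate 2, and that of miR-145a-5p -1.69 and -3.06, so that 1 array moved either fold by over 1.5 times. Without a colon array, miR-143-3p and miR-145a-5p had no spread left within a group, so a kept call rests on the spread of other miRNAs. With any one array left out, the call of miR-199a-5p against colon macrophages stayed below the threshold. So did that of miR-143-3p with a microglia or liver array left out. That of miR-145a-5p was lost without either microglia array (adjusted p = 0.0626 without replicate 1 and 0.0614 without replicate 2) and with the floor 1 log2 unit higher (0.0526), and that of miR-199b-5p without either colon array (0.0932 and 0.091). miR-199a-3p was no longer called without either colon array (0.176 and 0.175) or either liver array (0.0888 and 0.085). For miR-214-3p the call was lost without either microglia array (0.104 and 0.0791) or either colon array (0.128 and 0.0779). All 6 changes were negative under each of the 6 other scalings, but with the 75th percentile over all miRNAs limma called 0 of them (1 at an unadjusted p under 0.05), since that percentile is the value 0.1 for undetected miRNAs on microglia replicate 1. The other 5 scalings left 5 called (median), 5 (quantile), 6 (none), 6 (spike-ins) and 4 (authors' value table). miR-199a-3p lost its call with median scaling (adjusted p = 0.0513), quantile normalization (0.0535) and the authors' values (0.0881), and miR-199b-5p with the authors' values (0.0652). Those scalings moved the split over all miRNAs from 67 higher and 108 lower to 112 and 69 (median), 103 and 58 (quantile), 95 and 65 (authors' values), 29 and 108 (none) and 25 and 105 (spike-ins). The total of 175 calls fell to 75 when microglia replicate 2 was left out, and to 53 or 80 when colon replicate 1 or 2 was.

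Against liver macrophages 4 of the 6 could be tested, since miR-143-3p and miR-145a-5p were not detected on any of these 4 arrays and have no fold there. Of the 4, 3 fell in microglia (with the percentile over all miRNAs the change of miR-199a-3p turned to 0.15 and that of miR-199b-5p to 2.33), where 31.7% of the 382 tested miRNAs were lower and 21.2% higher. The same selection applies, as detection on both liver arrays admitted them. The median change of the 4 was -2.98, beside -0.60 over all tested miRNAs. miR-199a-5p (5.00 ± 0.51 in liver macrophages) was at least 8.50-fold lower in microglia (adjusted p = 0.00213) and miR-214-3p (4.24 ± 0.95) at least 5.02-fold (adjusted p = 0.0125). miR-199a-3p fell by 3.50 log2 units from 6.82 ± 0.31 (SE 1.08, adjusted p = 0.0429). miR-199b-5p did not pass, at 3.92 ± 0.32 in liver macrophages and 2.59 ± 1.34 in microglia (log2 change -1.33, 95% interval -3.03 to 0.37, adjusted p = 0.144).

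With arrays left out, miR-199a-5p kept its call against liver macrophages in each fit. miR-199b-5p passed without microglia replicate 1 (log2 change -2.38, adjusted p = 0.039), and its change was -0.28 without microglia replicate 2. The call of miR-199a-3p was lost without either colon array (adjusted p = 0.139 and 0.163) or either liver array (0.241 and 0.169). It held without microglia replicate 1 (log2 change -5.29) and without microglia replicate 2 (-1.72). It was also lost when the 4 compared arrays were fitted alone (adjusted p = 0.0823) and with median scaling (0.0959), quantile normalization (0.0904) and the authors' values (0.132), and with the floor 1 log2 unit lower (0.0676). That of miR-214-3p was lost with the floor 1 log2 unit higher (0.0692), and without either microglia array (0.114 and 0.0829) or either colon array (0.0589 and 0.0548). Its change was -1.75 without liver replicate 1. Quantile normalization left 1 of the 4 called, with miR-214-3p at 0.0603. The split over all miRNAs, 81 higher and 121 lower, became 124 and 108 with median scaling, 111 and 89 with quantile normalization, 107 and 99 in the authors' value table, 36 and 126 without scaling and 34 and 120 on spike-ins. The total of 202 calls fell to 117 without microglia replicate 2. The comparisons against colon and liver macrophages share the microglia arrays and are not independent of each other.

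**Figure D2:**
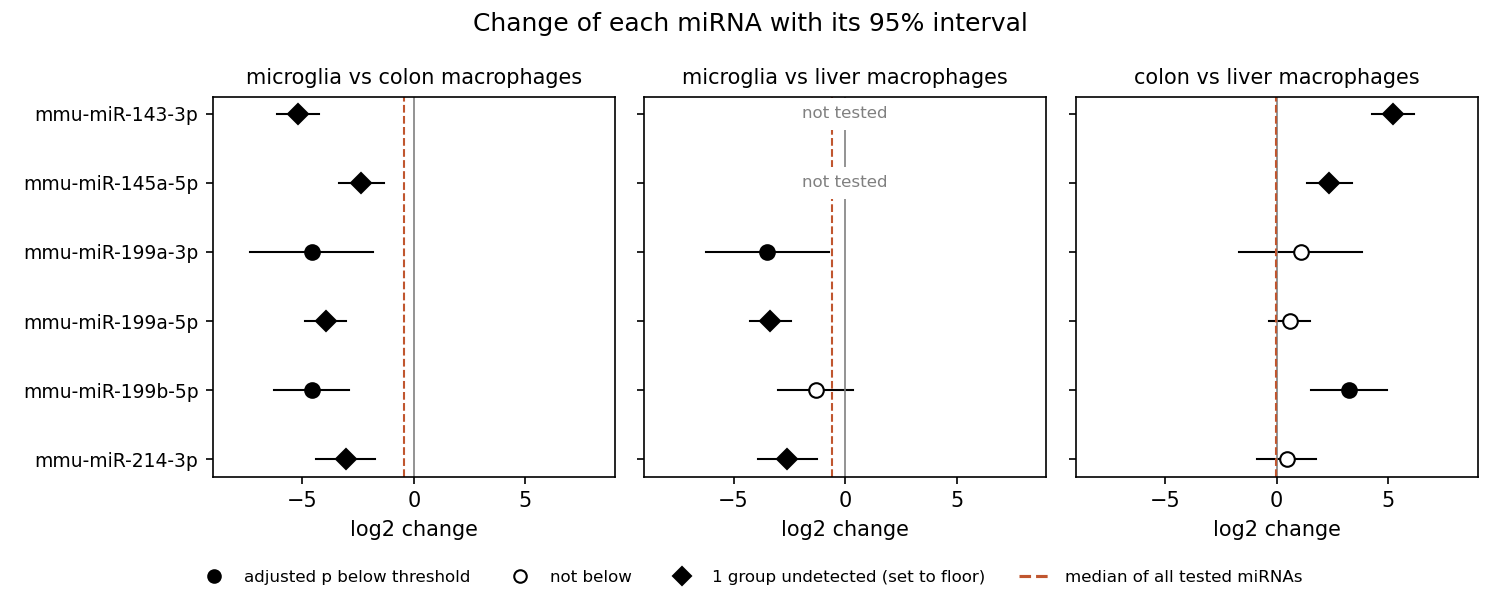
Log2 change (horizontal axis, first group minus second) of each miRNA in the 3 comparisons, with 95% intervals from limma; filled symbols passed the threshold, diamonds mark miRNAs undetected in 1 group and set to the floor, and the dashed line is the median of all tested miRNAs. In the comparison of colon with liver macrophages miR-143-3p, miR-145a-5p and miR-199b-5p lie clear of 0, and the intervals of miR-199a-3p, miR-199a-5p and miR-214-3p include it.

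Between colon and liver macrophages both miRNAs of the miR-143/145 locus and 1 of the miR-199/214 set passed the test. miR-143-3p, miR-145a-5p and miR-199b-5p were higher in colon macrophages, 3 of 6 tested, where 5.3% of 396 tested miRNAs were higher and 4.8% lower. Detection in the colon alone admitted miR-143-3p and miR-145a-5p, which therefore had to differ, while miR-199b-5p was detected on all 4 arrays. miR-143-3p was at least 41.7-fold higher (adjusted p = 0.00203) and miR-145a-5p at least 5.78-fold higher (adjusted p = 0.0315). These bounds rest on the lowest detected signals of the liver arrays themselves, at 1.44 and 1.47, which lie under the common floor of 1.64 used in the fit. The floored means behind the p-values were 36.7- and 5.09-fold apart. miR-199b-5p was 3.25 log2 units higher (SE 0.67, adjusted p = 0.0464). The other 3 did not pass: the change was 0.59 for miR-199a-5p (95% interval -0.32 to 1.51, adjusted p = 0.353), 0.45 for miR-214-3p (-0.87 to 1.78, adjusted p = 0.6) and 1.08 for miR-199a-3p (-1.68 to 3.83, adjusted p = 0.543). Those intervals reach beyond a 2-fold change, so equal levels were not shown.

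The call of miR-143-3p held with any one microglia or liver array left out. Its changes were 4.58 without colon replicate 1 and 5.87 without colon replicate 2, and those of miR-145a-5p 1.69 and 3.06. Without a colon array neither miRNA had spread left within a group, so a kept call rests on the spread of other miRNAs. The call of miR-145a-5p was lost with the floor 1 log2 unit higher (adjusted p = 0.116), without either microglia array (0.0971 and 0.0803) or either liver array (0.09 and 0.112) and with the 4 compared arrays alone (0.0571), without scaling (0.0674) and on spike-ins (0.0705). miR-199b-5p lost its call without either colon array (0.225 and 0.301) or either liver array (0.113 and 0.158). Its call was lost as well with median scaling (0.0774), quantile normalization (0.093), spike-ins (0.0557) and the authors' values (0.226), and with the floor 1 log2 unit lower (0.125), while its change stayed positive in each of these fits. For miR-214-3p the sign turned without liver replicate 2 (log2 change -0.22). Over all miRNAs the split of 21 higher and 19 lower moved to 20 and 31 with median scaling. The total of 40 calls became 19 without colon replicate 1, 109 without liver replicate 1 and 63 without liver replicate 2.

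The miR-199 arms can also be set against each other within an array, where a linear scaling cancels. miR-199b-5p minus miR-199a-5p was 1.58 on both colon arrays, but -1.21 on liver replicate 1 and -0.94 on liver replicate 2. The colon and liver values of this difference lay 2.66 log2 units apart, a 6.30-fold shift of miR-199b-5p relative to miR-199a-5p, against SDs of 0.00115 and 0.194 (n = 2 each). The signals of the 6 miRNAs were at most 13.5 times their scanner error, so the small colon SD is no measure of precision. An exact permutation test over these 4 arrays (2-sided) gave p = 0.333, the smallest value that 2 arrays against 2 allow. In the authors' value table the same differences were 1.63 and 1.64 in the colon and -1.52 and -1.53 in the liver. The difference in level between these probes has no meaning of its own, and how far each probe also binds the other's closely similar RNA was not tested.

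Relative to miR-214-3p, miR-199b-5p was also higher in the colon, by 2.40 and 2.56 against -0.76 and 0.13 in the liver (shift 2.80, exact permutation p = 0.333, again the smallest possible). miR-199a-5p minus miR-214-3p was 0.82 and 0.98 in the colon and 0.45 and 1.07 in the liver. Both are encoded within Dnm3os, and miR-199a-5p also by Mir199a-1 outside it. For this pair colon and liver overlapped, with a shift of 0.14 (exact permutation p = 1). miR-199a-3p minus miR-199a-5p was 2.24 and 2.37 in the colon and 1.69 and 1.96 in the liver, a shift of 0.48 (exact permutation p = 0.333). Adjusted over these 4 tests the smallest p was 0.444. The 5 differences computed, with miR-143-3p minus miR-145a-5p at 2.80 and 2.90 on the colon arrays, were chosen after the levels were seen.

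**Figure D3:**
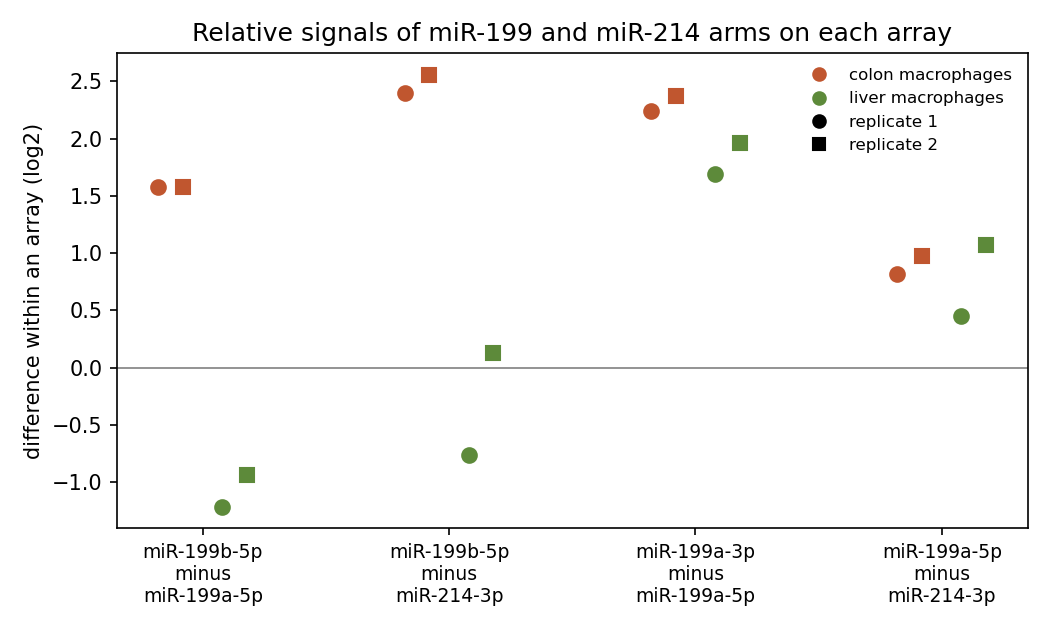
Difference in log2 scaled signal between pairs of miRNAs on the same array (vertical axis), for colon macrophages (orange-brown) and liver macrophages (green), circles replicate 1 and squares replicate 2. For miR-199b-5p minus miR-199a-5p the colon arrays lie at 1.58 and the liver arrays at -1.21 and -0.94, whereas miR-199a-5p minus miR-214-3p overlaps between the tissues.

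Across the 6 arrays the profiles fell into the same pairs. Pearson's r was 0.988 between miR-143-3p and miR-145a-5p and 0.986 between miR-199a-5p and miR-214-3p, and 0.597 to 0.615 for the 6 pairs that join miR-143-3p or miR-145a-5p with miR-199a-3p, miR-199a-5p or miR-214-3p. miR-199b-5p lay between, with r = 0.921 to miR-143-3p and 0.784 to miR-199a-5p. These values describe 6 arrays of 3 groups, many of them at the shared floor. Among 408 other miRNAs the 5 whose profile was most like the mean profile of the 6 were miR-5118 (r = 0.968), miR-497-5p (0.945), miR-3470a (0.944), miR-1196-5p (0.926) and miR-714 (0.926). miR-497-5p, a member of the miR-15/16 family, stood at 4.41 and 3.48 in microglia, with 7.09 and 6.62 for the colon and 6.20 and 6.06 for the liver.

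Of the 6 miRNAs, those detected on both arrays of a group moved together between replicates in colon and liver macrophages. In microglia none was detected on both arrays. All 6 were higher on colon replicate 1 than on colon replicate 2, by 0.38 to 1.03 log2 units, where the median difference of the 350 miRNAs detected on both was 0.13 and 61.4% were higher. All 4 detected in the liver were higher on liver replicate 1 than on liver replicate 2, by 0.44 to 1.34, while the median of 359 miRNAs ran the other way, at -0.37, with 35.1% higher. The summed scaled signal of the 6 was 714.4 and 485.5 for the colon, 220.8 and 146.8 for the liver, 43.7 on microglia replicate 1 and 0 on microglia replicate 2.

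Marker miRNAs of other cell types were read from the same arrays, and some of these lists followed the 6 miRNAs while others did not. Of 8 miRNAs of striated and smooth muscle, 3 were detected on colon replicate 1, 1 on colon replicate 2, 1 on liver replicate 1 and 0 on the other arrays. Their summed signal was 44.7 on colon replicate 1 and 10.2 on colon replicate 2, and 0 on both microglia arrays and liver replicate 2. miR-1a-3p, the main miRNA of striated muscle, was at 4.48 and 3.36 on the colon arrays, and was not detected elsewhere. miR-133a-3p and miR-133b-3p, its usual partners, were detected on colon replicate 1 alone, at 3.10 and 3.79. On these rows, as for miR-143-3p and miR-145a-5p, colon replicate 1 was the higher colon array. That order is not particular to them. It held for the epithelial sum (5921 against 4186) and for 61.4% of the 350 miRNAs detected on both colon arrays, while the lymphocyte marker miR-150-5p ran the other way (7.12 against 18.6). miR-490-3p, miR-499-5p, miR-208a-3p and miR-208b-3p were not detected on any array, and the detection on liver replicate 1 was of miR-206-3p, at 2.49.

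Of 14 epithelial markers the colon arrays held 14 and 12, with summed signals of 5921 and 4186, each liver array 4 (224.1 and 490.4), 10 on microglia replicate 1 (1154) and 3 on microglia replicate 2 (62.5). Both endothelial rows, miR-126-3p and miR-126-5p, were detected on all colon and liver arrays, with sums of 246.9 and 219.8 in the colon and 4140 and 2631 in the liver. On microglia replicate 1, the microglia array with miR-199a-3p and miR-199b-5p, miR-126-3p alone was detected (35.6), and on microglia replicate 2 neither row was. Of the 3 hepatocyte markers, 1 was detected on each microglia array (277.0 and 158.1), 0 for the colon, and 1 and 2 for the liver (2143 and 3639). All 5 neuronal and oligodendrocyte markers were detected on both microglia arrays (242.5 and 250.1), 4 and 3 for the colon (93.4 and 88.1) and 3 on each liver array (122.5 and 255.1). Of 2 erythrocyte markers both were detected on microglia replicate 1 and 1 on every other array, with sums of 714.6 and 121.6 in microglia, 58.8 and 51.2 for the colon and 172.3 and 157.7 for the liver. The lymphocyte marker miR-150-5p was not detected in microglia, and its signal was 7.12 and 18.6 for the colon and 502.7 and 136.2 for the liver. The endothelial, hepatocyte, lymphocyte, erythrocyte, and neuronal and oligodendrocyte sums were higher in liver than in colon macrophages. The epithelial and muscle sums were higher in colon macrophages, as was the mean level of each of the 6 miRNAs. In microglia the epithelial list parted from the 6 miRNAs. On microglia replicate 1 its sum (1154) was above both liver arrays, while the sum of the 6 miRNAs (43.7) was below both (220.8 and 146.8). The part of such cells in the levels of the 6 miRNAs was not tested.

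**Figure D4:**
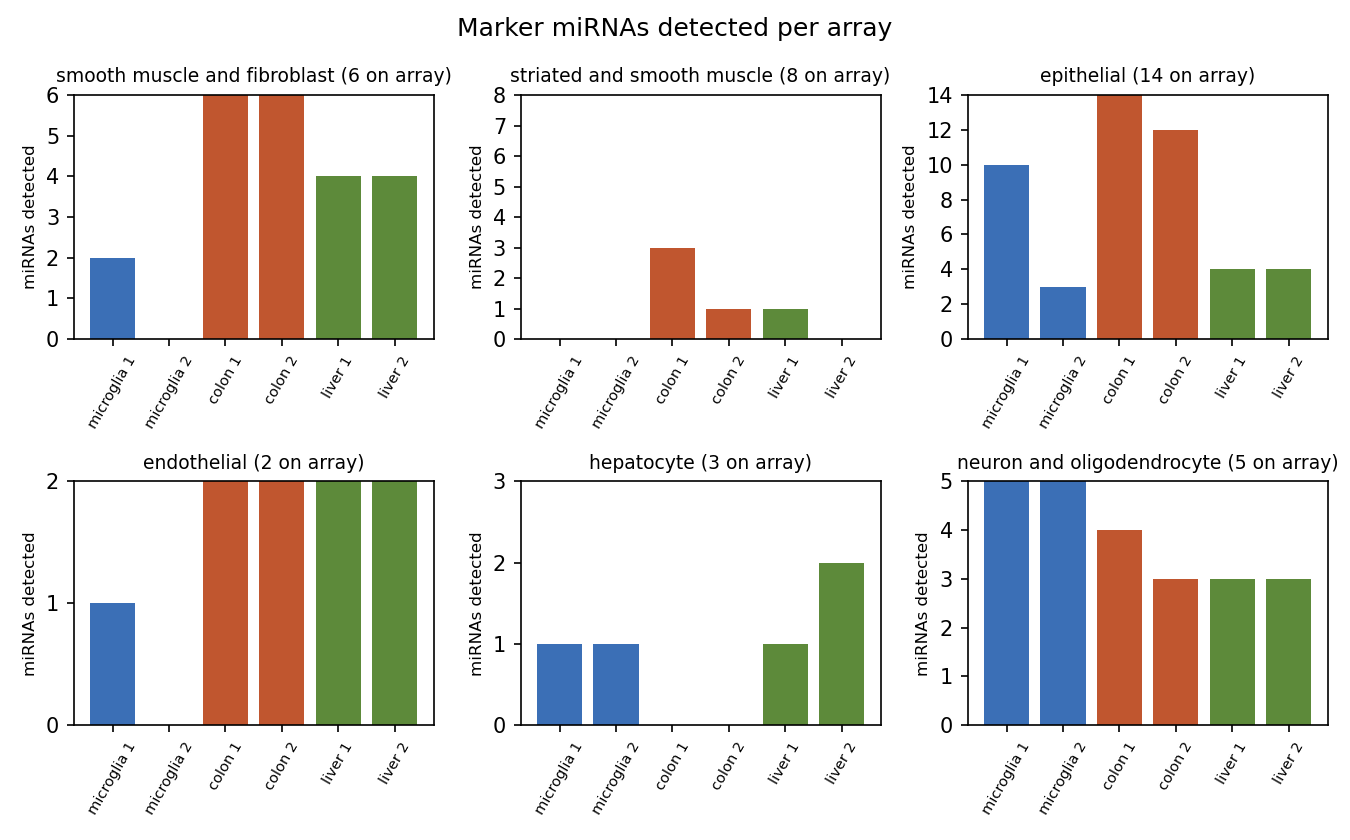
Number of miRNAs detected on each array (vertical axis, up to the number on the array) for the 6 miRNAs described here and 5 marker lists; blue bars are microglia, orange-brown bars colon macrophages and green bars liver macrophages, 1 bar per array. The muscle markers appear mainly on the colon arrays, and microglia replicate 1 carries 10 epithelial markers and 1 endothelial marker against 3 and 0 on microglia replicate 2.

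Other miRNAs that are known in mesenchymal cells and matrix regulation did not share one direction. Of 27 on the array, 18 were tested between microglia and colon macrophages, and 6 rose and 5 fell in microglia (median log2 change 0.55, beside -0.43 over all), where 17.7% of all tested miRNAs were higher and 28.5% lower. miR-99a-5p and miR-100-5p, from paralogous clusters with let-7 and miR-125 members, rose by 2.49 and 2.28 log2 units (adjusted p = 0.0033 and 0.0102). miR-196a-5p, encoded in the Hox clusters, was at 5.58 ± 0.27 in colon macrophages, was not detected elsewhere, and was at least 12.7-fold lower in microglia (adjusted p = 0.00108). Detection in the colon alone admitted it to the test, so it had to differ in this direction. miR-497-5p fell by 2.91 (adjusted p = 0.00598). Against liver macrophages 6 of 17 rose and 3 fell in microglia (median 0.34, beside -0.60 over all, where 21.2% were higher and 31.7% lower), with miR-99a-5p up by 3.90 and miR-125b-5p by 2.82 (adjusted p = 0.000933 and 0.00227), and miR-21a-5p, a miRNA raised in fibrosis, and miR-497-5p down, at -2.47 and -2.18 (adjusted p = 0.0185 and 0.00938). Between colon and liver macrophages 3 of 18 were higher in the colon and 0 lower in limma's test (median 0.10, beside -0.04 over all, where 5.3% were higher and 4.8% lower). They were miR-196a-5p, admitted by the colon alone and at least 17.4-fold higher against the liver arrays' lowest detected signals (15.3-fold between floored means, adjusted p = 0.00203), miR-10b-5p, by 1.49 (adjusted p = 0.0368), and miR-99a-5p, by 1.42 (adjusted p = 0.0464), the last named after its value was seen. Over 18 alternatives the call of miR-10b-5p was lost in 10 and that of miR-99a-5p in 13, among them each fit with 1 array left out for miR-99a-5p and those without a microglia or a liver array for miR-10b-5p. In microglia the call of miR-100-5p against colon macrophages was lost in 6 of 18 alternatives and that of miR-99a-5p in 2. Against liver macrophages those of miR-99a-5p and miR-125b-5p were lost in 1 each. For miR-196a-5p it was lost in 1 of 17 in each of its comparisons. With the sign kept, the call of miR-497-5p was lost in 3 against either tissue and that of miR-21a-5p in 5 against liver macrophages. The changes of miR-21a-5p and miR-497-5p in microglia turned positive only with the percentile over all miRNAs. That percentile is the placeholder 0.1 on microglia replicate 1, and the other alternatives kept these changes negative.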

How the data were processed

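Per the labels' protocols, total RNA was isolated with a miRNeasy kit, and Cy3-labelled product of 100 ng was hybridised to Agilent miRNA arrays of 1 colour. Per the file headers each deposited table gives a total gene signal (a linear intensity), its error (an intensity too) and a detection flag, an undetected miRNA standing at 0.1. The submitters' processing notes name Agilent Feature Extraction 9.1. The authors also deposited a log2 value table of 595 miRNAs, used as an alternative. How it was normalized is not stated in these sources.

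After 21 control rows were left out, arrays were scaled, floored at 3.12 scaled units (the median of the lowest detected signals) and put on a log2 scale. The 3 group means were fitted jointly to the 6 arrays in limma (version 3.58.1, R 4.3.3) with eBayes. Residual degrees of freedom were 3 and prior ones 2.20. Tests were 2-sided with Benjamini-Hochberg adjustment (threshold 0.05), and a miRNA was tested where both arrays of a compared group detected it. The fit was also run on simulated data in which all miRNAs had the same spread before flooring. The spreads of the 6 members differ, so that run does not check their p-values. The files hold no background signals, slides or scan dates, so no background correction or batch block was run.

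The named miRNAs were the 6 members, other arms of their hairpins, the 5 most alike profiles, and the 2 largest rises and falls of the mesenchymal list. Marker lists were to be given by counts, sums and undetected members, and the muscle miRNAs given with levels were picked after their values were seen. Members and lists were chosen with earlier results of these data known. The alternatives were 5 other scalings plus the 75th percentile over all miRNAs, 2 filters, 2 floors, a 4-array fit, a replicate block, and leaving out each array.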

Additional observations from a re-analysis of the deposited data

How the results depend on the processing

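Of 272 fits of a single member under 17 alternatives, 197 kept direction and side of the threshold, 71 lost the call, 1 gained it and 3 reversed. The 272 include results not called in the main fit, which had no call to lose, so the 71 fall on the called results alone. The cause was not tested unless named. Without the detection filter limma called 1 member between microglia and colon macrophages and 0 in the other comparisons (6, 2 and 3 at an unadjusted p under 0.05), where p-values were adjusted over all 1247 miRNAs. The 75th percentile over all miRNAs gave limma calls of 0, 0 and 0 (1, 0 and 1 unadjusted). That percentile is the placeholder 0.1 on microglia replicate 1, where 24.1% of miRNAs were detected. Quantile normalization left 1 member against liver macrophages, and spike-in scaling 1 between colon and liver macrophages. Leaving out each array gave 3 to 5, 1 to 3 and 1 to 2 members (microglia against colon, microglia against liver, colon against liver), with a lone array assumed to vary like the other groups. Testing miRNAs detected on all 6 arrays left no member.

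The replicate block gave 6, 3 and 3 members, as without it. Same-numbered arrays deviated together at r = 0.21, 0.07 and -0.09, so the numbers were not taken as pairing samples. It changed 0 calls of members, and ended those of miR-99a-5p and miR-10b-5p between colon and liver macrophages (adjusted p = 0.0961 and 0.0821). The count over all miRNAs fell from 40 to 24 between colon and liver macrophages.

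Reversed values under the percentile over all miRNAs were, against colon macrophages, miR-497-5p 0.95, miR-3470a 2.19, miR-1196-5p 1.86, miR-714 0.15, miR-21a-5p 1.49 and miR-10b-5p 1.94. Against liver macrophages they were miR-199a-3p 0.15, miR-199b-5p 2.33, miR-5118 0.54, miR-497-5p 1.82, miR-3470a 2.78, miR-1196-5p 3.16, miR-714 1.19, miR-21a-5p 1.54 and miR-10b-5p 3.57. miR-10b-5p against liver macrophages also turned to 0.0014 (median), 0.17 (quantile) and 0.20 (authors' values). Between colon and liver macrophages miR-214-3p turned to -0.22 without liver replicate 2 (1.16 without liver replicate 1), miR-100-5p to 0.0012 without liver replicate 1 (-0.78 without liver replicate 2), and miR-21a-5p to 0.73 without liver replicate 2 (-0.90 without liver replicate 1), 0.045 (percentile over all), 0.38 (quantile) and 0.24 (authors' values). The shift of miR-199b-5p relative to miR-199a-5p stayed between 2.52 and 3.16. Linear scalings cancel within an array, and the floors and filters did not touch these values. Only quantile normalization, the authors' values and leaving out a colon or liver array moved it.

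Undetected groups give bounds only, set by each array's lowest detected signal rather than by the limit of each miRNA's own probes.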
